A study of Homo sapiens with 6 samples.

Results

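*MDM2*, *CDKN1A*, *CCNG1*, *PPM1D*, *BTG2*, *ZMAT3*, *TP53INP1*, *GADD45A* and *SESN1* are targets of the transcription factor p53 that act in cell cycle arrest or that feed back on p53 itself. These 9 genes, of 60609 listed, were matched by symbol to 1 Ensembl identifier each and were followed in OCI-AML5, an acute myeloid leukemia line long established in culture and grown here with GM-CSF. The cells received 1 μM S767, a small molecule studied for its activity against leukemia cells, or DMSO, its solvent, for 24 hours, with 3 stranded mRNA libraries per group numbered 1 to 3. The transcriptome was measured to ask which processes respond to the compound. Both groups are the same unmodified cell line, so the comparison covers 1 genetic background, 1 dose and 1 time. The genes were chosen with their difference between S767 and DMSO already known, so that difference is described below without a test.

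In unstressed cells p53 protein is kept scarce because MDM2, a ubiquitin ligase, marks it for degradation. DNA damage and other stresses release p53 from this control, and it then binds paired copies of a short decamer near its targets and raises their transcription. *MDM2* is itself a target, which closes a negative feedback loop, and PPM1D (Wip1), a phosphatase, closes another by removing activating phosphates from p53 and its kinases. CDKN1A (p21) inhibits cyclin-dependent kinases and is the main route by which p53 stops the cell cycle. The other genes add to arrest (*GADD45A*, *BTG2*), bind regulatory phosphatase subunits (*CCNG1*), control RNA stability (*ZMAT3*), promote autophagy and cell death (*TP53INP1*) or restrain mTORC1 (*SESN1*).

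Each gene was well measured in every library. The 9 genes held between 1879 fragments (*TP53INP1*) and 62230 fragments (*CDKN1A*) per library, of 149994700 to 258029564 fragments counted on genes. The myeloid genes *CD33* and *SPI1* were at 88.57 to 105.87 and 213.74 to 258.5 TPM (transcripts scaled to length and to a fixed library total), whereas the progenitor genes *CD34* and *KIT* did not exceed 2.65 and 0.42 TPM. Of 15 markers of B, T, erythroid, epithelial and fibroblast cells, 14 stayed under 1 TPM, and the exception was *CD79A*, a B cell receptor component, at 6.63 to 11.18 TPM. The myeloid markers summed to 676 to 1093 TPM in both groups. *LYZ*, the myeloid lysozyme, was at 596.54 and 596.43 TPM in DMSO and S767 replicate 1 and at 244.24 to 263.79 TPM in the other 4 libraries, so the replicate number separates libraries of both groups alike.

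Start-site sequences were examined first, since they do not depend on the expression values. The genes were listed as p53 targets, however, so a match to a p53 site is not independent of their choice. RefSeq (GRCh38.p14) gave windows of 250 bases before to 50 bases after annotated starts for 7 of the 9 genes, all but *GADD45A* and *TP53INP1*. The p53 half-site consensus, a palindromic decamer that reads the same on both strands, occurred without mismatch in the windows of *SESN1* and of none of the other 6 genes (14.3%). Of all 27305 genes in the table, 8.06% held it. A full site, taken as 2 adjoining half-sites of 20 bases in all with the C and G of each central CNNG core kept and at most 3 mismatches, which may fall on the N bases, occurred in *MDM2* and *SESN1* (28.6% of the 7), against 1.37% of all genes. With at most 2 mismatches *MDM2* alone of the 7 remained, against 0.359% of all genes, and with at most 1 mismatch no window of the 7 held a site. A gene counted when any of its windows matched, and *MDM2* and *SESN1* had the most windows of the 7. The shares were not adjusted for the number of windows. These are matches of letters in short windows, given as a description, and nothing about p53 binding was measured.

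Stretches before the start are shown for the 2 genes with a match and, for contrast, for *CCNG1*, which had none. Each is the longest run, among the 120 bases before the start, that lies in no annotated exon of the gene. The *MDM2* and *CCNG1* stretches therefore stop short of the start. Capitals mark 20-base matches to the full site. The first in *MDM2*, at chr12:68808923-68808942 on the plus strand, has 2 mismatches and begins at -94 from an internal start of the gene. The second, at chr12:68808961-68808980, has 3 mismatches and lacks the C of its first core, a looser rule added after the data were seen that 6.39% of all genes meet. The *SESN1* match at chr6:109009018-109009037 on the minus strand has 3 mismatches, begins at -49 from an internal start and contains the perfect half-site. The *MDM2* and *SESN1* stretches lie within the gene and, by this cut, outside every exon that GENCODE 29 annotates for it. The *CCNG1* stretch lies just before its gene (stretches at chr12:68808897-68809001, chr6:109008989-109009108 and chr5:163437451-163437568).
MDM2: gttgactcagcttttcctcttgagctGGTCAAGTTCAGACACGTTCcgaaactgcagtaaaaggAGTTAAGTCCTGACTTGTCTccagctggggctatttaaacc
SESN1: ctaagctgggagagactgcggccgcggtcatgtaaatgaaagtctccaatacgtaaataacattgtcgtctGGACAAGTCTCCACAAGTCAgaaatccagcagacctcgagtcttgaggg
CCNG1: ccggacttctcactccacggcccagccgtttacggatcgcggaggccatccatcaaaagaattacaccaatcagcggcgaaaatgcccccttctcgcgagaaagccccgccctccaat

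All 9 genes were expressed in the cells that received DMSO for the same 24 hours, at levels that spanned the middle to the top of the transcriptome. Levels of different genes are compared here in TPM, which is scaled by transcript length. *CDKN1A* was highest in DMSO at 115.5 ± 30.7 TPM (SD, n = 3), above 94.1% of the 20725 genes tested. *CCNG1* followed at 87.8 ± 0.891 TPM and *MDM2* at 41.0 ± 1.97 TPM. *GADD45A* was at 27.3 ± 2.88 TPM, *SESN1* at 16.9 ± 1.37 TPM, *PPM1D* at 13.3 ± 1.96 TPM and *BTG2* at 12.5 ± 1.26 TPM. *ZMAT3* and *TP53INP1* were the lowest at 4.85 ± 0.302 and 2.93 ± 0.238 TPM, the latter above 47.9% of genes tested. Only the neighbors *PPM1D* and *BTG2* overlapped in their ranges over the DMSO libraries, at 11.11 to 14.81 and 11.31 to 13.82 TPM. Reverse-strand counts per gene scaled to library size (CPM), when divided by length, gave the same order for all 9.

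**Figure D1:**
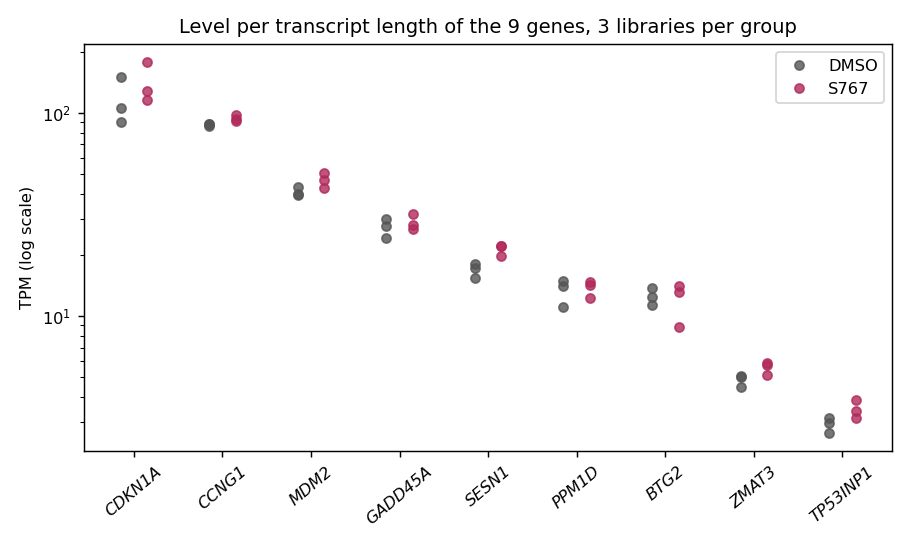
Level of each of the 9 genes in TPM on a log axis, with 1 point per library, DMSO in grey and S767 in red, 3 libraries per group. The order from *CDKN1A* to *TP53INP1* is that of the DMSO means, from 115.5 to 2.93 TPM, and the shift between groups is small beside the distance between most genes.

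After S767, 8 of the 9 genes were higher in all 3 replicate numbers, compared within each number, and *BTG2* was the exception. Over all 20725 genes tested, 19.9% were higher in all 3 numbers and 17.8% lower. Their log2 fold changes had a median of 0.23, against -0.00024 over all genes tested. In 4 genes (*MDM2*, *CCNG1*, *TP53INP1* and *SESN1*) every S767 library exceeded every DMSO library in CPM, as did 5.12% of all genes, while 4.08% were separate in the other direction. Because the genes were chosen on this same contrast, nothing is read from these counts. Leaving out DMSO replicate 2 lowered the median to 0.15.

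The size of the differences was modest, with values from 27.5% higher for *SESN1* to 4.92% higher for *PPM1D*, and -1.79% for *BTG2*, in the fit across all genes. The feedback genes are given first, each gene with its identifier and its span in GENCODE 29 (GRCh38). In DMSO replicates 1 to 3 *MDM2* (ENSG00000135679.25, chr12:68808176-68850686) was at 144.2, 136.7 and 136.2 CPM, and in S767 replicates 1 to 3 at 169.4, 152.5 and 166.1 CPM. The groups did not overlap, and their means of 139.0 ± 4.48 and 162.7 ± 8.97 CPM (SD, n = 3) gave a log2 fold change of 0.23 ± 0.05 (SE). In TPM, however, the lowest *MDM2* value with S767 (42.59 in replicate 2) lay under the highest with DMSO (43.25 in replicate 1). *PPM1D* (ENSG00000170836.11, chr17:60600183-60666280) was at 35.9, 27.8 and 36.0 CPM in DMSO and at 36.1, 29.9 and 38.6 CPM in S767. Both groups were low in replicate 2 and overlapped, with a log2 fold change of 0.07 ± 0.12. Within numbers *PPM1D* was higher with S767 in all 3, and the fit with the replicate block gave 0.07 ± 0.03. Leaving out 1 library of a number unbalances the groups, and the log2 fold change was then -0.04 without DMSO replicate 2 and 0.17 without S767 replicate 2. In TPM replicate 3 was at 14.81 with DMSO and 14.77 with S767.

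The arrest genes differed widely among themselves. *CDKN1A* (ENSG00000124762.13, chr6:36676460-36687339) was at 226.2, 137.1 and 160.8 CPM in DMSO and at 261.3, 180.5 and 198.9 CPM in S767. Every number was higher with S767, but DMSO replicate 1 exceeded S767 replicates 2 and 3, and the log2 fold change was 0.29 ± 0.19 (0.30 ± 0.03 with the replicate block). The range between replicate numbers, averaged over both groups, was 0.63 on the log2 scale, larger than the mean difference within numbers of 0.30. Replicate 1 held the highest *CDKN1A* in each group, as it did for *LYZ*, and the part of the replicate number in the *CDKN1A* difference was examined only by comparing within numbers. The log2 fold change was 0.12 without S767 replicate 1 and 0.52 without DMSO replicate 1.

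*GADD45A* (ENSG00000116717.13, chr1:67685061-67688338), whose product binds cell cycle and repair proteins, was at 26.0, 21.6 and 24.2 CPM in DMSO and at 27.1, 24.5 and 25.1 CPM in S767. The groups overlapped, and the log2 fold change of 0.09 ± 0.08 ranged from 0.03 without DMSO replicate 2 to 0.16 without DMSO replicate 1 (0.10 ± 0.03 with the replicate block). *BTG2* (ENSG00000159388.6, chr1:203305491-203309602), which encodes an antiproliferative cofactor of mRNA deadenylation, was at 24.4, 22.3 and 27.3 CPM in DMSO and at 27.5, 18.2 and 26.9 CPM in S767. It was higher with S767 in replicate 1, lower in replicate 2 and nearly level in replicate 3, with a log2 fold change of -0.03 ± 0.15 (-0.04 ± 0.06 with the replicate block). The value turned to 0.14 without S767 replicate 2.

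*CCNG1* (ENSG00000113328.19, chr5:163437569-163446151), the gene of cyclin G1, was at 118.7, 122.4 and 123.2 CPM in DMSO and at 128.5, 136.6 and 137.7 CPM in S767. It was the least variable of the 9 within groups, and its groups were separate at a log2 fold change of 0.15 ± 0.04. *ZMAT3* (ENSG00000172667.11, chr3:179017223-179072279), which encodes a zinc finger RNA-binding protein, was at 25.6, 28.8 and 28.6 CPM in DMSO and at 28.7, 34.7 and 34.0 CPM in S767. Its groups met at the edge, with S767 replicate 1 just under DMSO replicate 2, and the log2 fold change was 0.23 ± 0.08. In TPM the lowest S767 value (5.14) lay above the highest DMSO value (5.05), so the 2 scales differ on this overlap.

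*TP53INP1* (ENSG00000164938.14, chr8:94925972-94949411) was at 14.6, 12.6 and 13.6 CPM in DMSO and at 17.5, 15.1 and 16.3 CPM in S767. The order of the numbers was the same in both groups, and the groups were separate at a log2 fold change of 0.26 ± 0.08. *SESN1* (ENSG00000080546.13, chr6:108986437-109094819) was at 35.4, 30.7 and 33.6 CPM in DMSO and at 42.0, 40.9 and 44.2 CPM in S767. It had the largest log2 fold change of the 9 in this fit, 0.35 ± 0.06, between means of 33.2 ± 2.39 and 42.4 ± 1.67 CPM, with no overlap. In bulk RNA, more transcript per cell in all cells and a larger share of cells with high expression cannot be told apart for any of these genes.

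**Figure D2:**
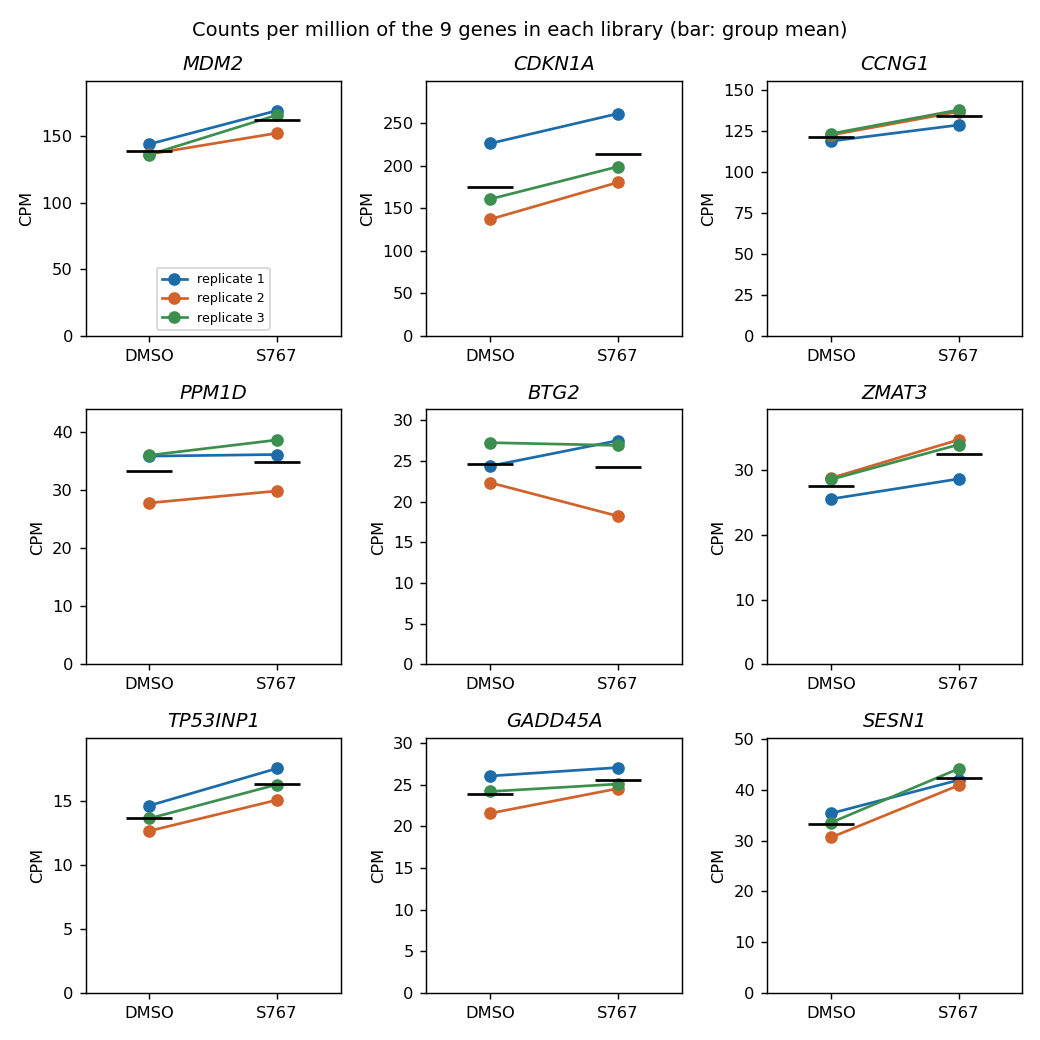
CPM of each of the 9 genes in each library, with DMSO and S767 on the x axis, lines joining libraries of the same replicate number, black bars at the group means and every y axis starting at 0. All lines rise for 8 genes, while for *BTG2* only that of replicate 1 does, from 24.4 to 27.5 CPM.

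Taking the ratio of S767 to DMSO within each replicate number removed much of the spread in *CDKN1A*, *PPM1D* and *TP53INP1*. In *MDM2* and *BTG2* the ratios spanned more than the DMSO libraries did on the log2 scale (0.08 and 0.29). The log2 ratios of *TP53INP1* lay between 0.25 and 0.26 over the 3 numbers, the narrowest range of the 9. *MDM2* lay between 0.16 and 0.29, *CDKN1A* between 0.21 and 0.40, *CCNG1* between 0.11 and 0.16, *ZMAT3* between 0.17 and 0.27 and *SESN1* between 0.25 and 0.42. *GADD45A* at 0.05 to 0.19 and *PPM1D* at 0.01 to 0.10 stayed above 0 by less. *BTG2* had ratios from -0.29 to 0.17 with an SD of 0.23, the widest of the 9. The range between replicate numbers exceeded the mean ratio in *CDKN1A*, *PPM1D*, *BTG2* and *GADD45A*, and did not in the other 5. The median ratio of the 9 genes was 0.17, 0.19 and 0.25 in replicates 1, 2 and 3, where 9, 8 and 8 of the 9 genes were higher and 52.1, 50.4 and 50.3% of all genes were.

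**Figure D3:**
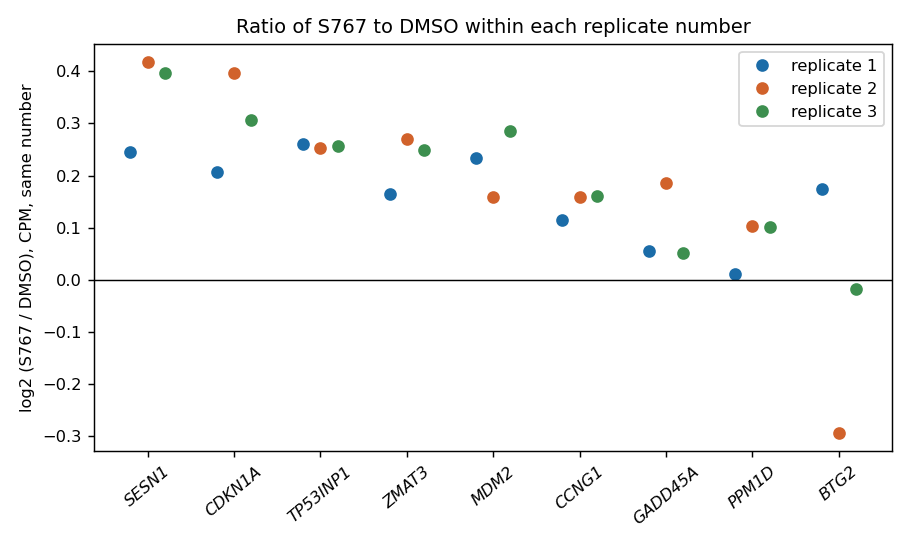
Log2 ratio of S767 to DMSO in CPM within each replicate number for the 9 genes, 1 point per number, ordered by their mean. All 3 points lie above 0 for 8 genes, and *BTG2* spans -0.29 to 0.17.

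The 9 genes varied together in part, and some of this is built in, since they were chosen on the contrast between the groups. Over the 6 libraries, 31 of the 36 pairs of genes had a positive Pearson correlation of log2 CPM, with a median r of 0.58 and a range of -0.40 to 0.96. *CDKN1A* and *GADD45A* had an r of 0.96, *MDM2* and *TP53INP1* 0.96, and *CCNG1* and *ZMAT3* 0.95. After the group means were taken out, *CCNG1* and *ZMAT3* still had an r of 0.97, whereas *ZMAT3* against *CDKN1A* was at -0.92. Both *CCNG1* and *ZMAT3* were then negative against every other gene of the 9. Thus within a treatment *CDKN1A*, *GADD45A* and *TP53INP1* were highest in replicate 1 while *CCNG1* and *ZMAT3* were lowest there. These values describe 6 libraries that share treatments and replicate numbers and carry no test. Among 12785 genes with a mean of 1 CPM or more, those most like *MDM2* over the 6 libraries were *UBA3* (r = 0.989), *TPMT* (r = 0.977) and *ZNF615* (r = 0.976). Those most like *CDKN1A* were *PTPN22* (r = 0.996), *UGP2* (r = 0.995) and *SLC12A9* (r = 0.995). Their log2 fold changes were 0.31, 0.04 and 0.06, beside 0.29 for *CDKN1A*, so a high r here need not mean a like difference with S767.

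Genes around these 9 in the p53 network were then examined in the fit of S767 against DMSO across all genes. With edgeR, 1 gene of 20725 passed an adjusted p of 0.05 (0.00483%), and it was not in any list here. At an unadjusted p under 0.05, 2.03% of genes were higher with S767 and 1.51% lower. The replicate numbers pair the libraries, and with the number as a block 2.16% of genes passed an adjusted p of 0.05 as higher and 1.08% as lower. Below, log2 fold changes, SEs and unadjusted p are from the fit without the block unless the block is named. Adjusted p are from the fit with it, so an SE and an adjusted p printed together can belong to different fits. The fit without the block was the planned main fit, and no gene of the lists passed in it. The block was taken for adjusted p with this known. Of the 106 other genes in the lists, 25 passed with the block, and 39, 4 and 22 did without replicate number 1, 2 and 3. The lists, like the 9 genes, were drawn up with earlier results of these data known.

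Most genes in the list of regulators of the pathway did not pass either test. *MDM4*, the relative of MDM2 that inhibits p53, was at a log2 fold change of -0.04 ± 0.04 (edgeR adjusted p = 0.55 with the block). Of the 17 genes in this list, *TP73*, a member of the p53 family, passed with the block as higher (0.14 ± 0.03, edgeR adjusted p = 0.016), while without it the value was 0.14 ± 0.07 and the unadjusted p not under 0.05. *CHEK2*, a kinase that phosphorylates p53, had an unadjusted p under 0.05 (0.10 ± 0.04, edgeR adjusted p = 0.079 with the block). The median of the list was 0.03.

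Further p53 targets included genes that passed with the block in higher numbers than the 2.16% over all genes. Because these lists were drawn up with earlier results of these data known, nothing is read from that difference. Among 20 targets in DNA repair and other functions, 12 passed as higher with the block and 0 as lower, and 12 had an unadjusted p under 0.05 as higher. The median log2 fold change of the list was 0.16. The repair genes *DDB2* (0.29 ± 0.04), *XPC* (0.14 ± 0.04) and *POLH* (0.16 ± 0.04), which act in recognition or bypass of DNA lesions, were among them, with edgeR adjusted p = 0.00029, 0.014 and 0.011 with the block. *RRM2B*, a ribonucleotide reductase subunit, rose by 0.25 ± 0.05 and *FDXR*, the mitochondrial ferredoxin reductase, by 0.37 ± 0.05 (edgeR adjusted p = 0.00047 and 0.00036 with the block). *FDXR* was at 38.4 ± 1.34 CPM in DMSO and 49.6 ± 2.20 CPM in S767. *TRIM22*, *KITLG*, *SPATA18*, *CMBL*, *PLK2*, *RPS27L* and *ASCC3* also passed with the block, at log2 fold changes from 0.12 (*ASCC3*) to 0.43 (*CMBL*). *RPS27L* resembles the ribosomal protein gene *RPS27* closely, so its count is less certain.

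Of 15 apoptosis targets, 7 passed as higher with the block and 0 as lower, and 6 had an unadjusted p under 0.05. *FAS*, a death receptor, went from 7.44 ± 0.907 to 10.1 ± 0.795 CPM (0.44 ± 0.10, edgeR adjusted p = 0.00057 with the block). *PHLDA3*, an inhibitor of AKT, rose by 0.44 ± 0.07 and *EDA2R*, a receptor of the tumor necrosis factor family, by 0.43 ± 0.10 (edgeR adjusted p = 0.0003 and 0.00057 with the block). *BBC3* (PUMA), which encodes a BH3-only protein, was 0.19 ± 0.06 higher and *TNFRSF10B*, another death receptor, 0.12 ± 0.09 higher (edgeR adjusted p = 0.039 and 0.015 with the block). *TNFRSF10B* was at 0.12 ± 0.02 with the block, and without it its unadjusted p was not under 0.05. *AEN* and *PIDD1* completed the 7, at 0.11 ± 0.04 and 0.16 ± 0.06. *PMAIP1* (NOXA), another BH3-only gene, pointed the other way at -0.31 ± 0.19. It went from 54.6 ± 17.7 to 44.0 ± 3.21 CPM and did not pass (edgeR adjusted p = 0.11 with the block). DMSO replicate 2 was at 74.9 CPM, against 42.3 and 46.6 CPM in DMSO replicates 1 and 3. Without DMSO replicate 2, which unbalances the groups, the log2 fold change of *PMAIP1* was -0.02. Within numbers it was lower with S767 in all 3, at log2 ratios of -0.05, -0.66 and -0.09, and the fit with the block gave -0.27 ± 0.08. *FAS*, *PHLDA3* and *EDA2R* had larger log2 fold changes than *SESN1*, the highest of the 9, a difference that was not tested.

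The genes on which CDKN1A acts and those repressed in arrest were examined next. Of 17 cyclins, kinases, pocket proteins and other partners or targets of CDKN1A, 0 passed an adjusted p of 0.05 with edgeR, with or without the block. Without the block 0 had an unadjusted p under 0.05 (median log2 fold change 0.03). With the block some did, the lowest at an unadjusted p of 0.0063 (edgeR). Among 24 S and M phase genes repressed by RB or DREAM complexes when cells arrest, 13 were lower with S767 in all 3 numbers and 3 higher, beside 17.8 and 19.9% of all genes. Their median log2 fold change was -0.03. The mitotic genes *PLK1* (-0.14 ± 0.04), *CDC20* (-0.12 ± 0.05) and *AURKA* (-0.11 ± 0.05) passed as lower with the block, with edgeR adjusted p = 0.0073, 0.026 and 0.027. *AURKA* was at -0.11 ± 0.02 with the block, and without it its unadjusted p was not under 0.05. *RRM2*, the S phase subunit of ribonucleotide reductase, passed as higher (0.13 ± 0.05, edgeR adjusted p = 0.019 with the block). *PLK1* went from 259.0 ± 6.86 to 235.2 ± 2.92 CPM. The number of cells in each phase was not measured in these libraries.

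Paralogs of the 9 genes, related in sequence and for the most part not counted among the core targets of p53, were set beside them. Of 15 paralogs, 0 passed as higher and 1 as lower with the block, beside 2.16 and 1.08% of all genes. No contrast with the 9 chosen genes is read from this count. *SESN3* was that gene, at -0.14 ± 0.11 without the block, where its unadjusted p was not under 0.05, and -0.14 ± 0.03 with it (edgeR adjusted p = 0.032 with the block), beside *SESN1* at 0.35 ± 0.06 and *SESN2* at 0.05 ± 0.11. *CDKN1B* (p27), a sister inhibitor of CDKN1A, was at 0.07 ± 0.06, and *CDKN1C* was barely expressed at 0.0517 ± 0.0189 CPM in DMSO. *CCNG2* was at -0.12 ± 0.10 beside *CCNG1* at 0.15 ± 0.04. *GADD45B* was at -0.08 ± 0.08 and *GADD45G*, at 0.143 ± 0.0486 CPM in DMSO, was barely expressed. *BTG1* was at -0.09 ± 0.10, *BTG3* at 0.03 ± 0.11, *ZMAT1* at -0.09 ± 0.09 and *TP53INP2* at -0.06 ± 0.12. The phosphatases *PPM1A*, *PPM1B* and *PPM1G* were at 0.02 ± 0.05, 0.00278 ± 0.0659 and -0.02 ± 0.05, close to *PPM1D* at 0.07 ± 0.12. In all, 7 of the 15 were lower in all 3 numbers and 1 was higher, beside 17.8 and 19.9% of all genes, and the difference between each gene and its paralog was not tested.

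**Figure D4:**
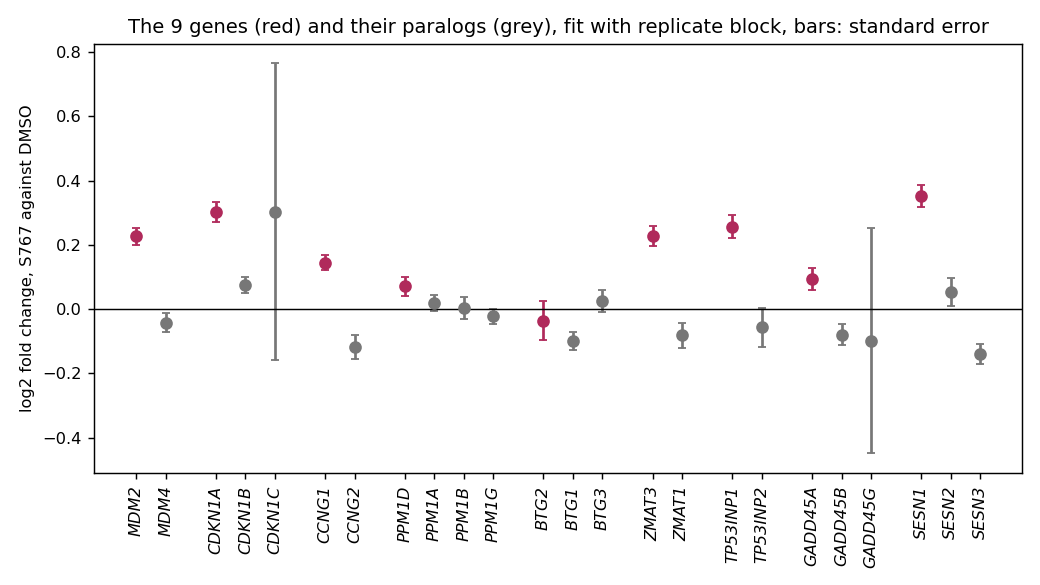
Log2 fold change of S767 against DMSO for the 9 genes (red) and their paralogs (grey), from the fit with the replicate block, with bars for 1 standard error. The red points lie above 0 except *BTG2*, and the paralogs lie near or below 0 except for the barely expressed *CDKN1C* with its long bar and a few small values such as *CDKN1B*.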

How the data were processed

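The authors deposited raw STAR counts per gene (unmapped and other summary lines, 20.3% of fragments, left out here) and RSEM tables of expected counts and TPM. Per the labels, notes name GRCh38, STAR 2.7.1a and RSEM 1.2.28. The annotation release is not given in the sources used here, and positions are from GENCODE 29. Forward-strand counts were 6.44 to 6.58% of both strands, so reverse-strand counts were used. Genes were kept with filterByExpr (minimum count 10), normalized with TMM and compared with the quasi-likelihood test of edgeR 4.0.16 (R 4.3.3), with Benjamini-Hochberg adjustment over 20725 genes. SE is the log2 fold change over the square root of F. CPM per library used TMM, and within-number ratios a prior count of 2. The model was also run on simulated data with planted differences larger than those of the 9 genes. That run does not show how well differences of the size described here are found. The labels do not say whether libraries are separate cultures, so p-values measure the spread between these samples. Deviations from group means correlated at 0.78, 0.87 and 0.75 between libraries of the same number (6191 genes), so the numbers pair the libraries. Correlations between different numbers were negative, which centering on means of 3 libraries partly forces. The pairing comes from the values alone. The 9 genes and all lists were chosen with earlier results of these data known. Named are the 9, list genes past P under 0.05 or past the block, *MDM4*, *PMAIP1*, paralogs and the 3 genes most like *MDM2* and *CDKN1A*. One item of this rule is not reported here. Alternatives were DESeq2 1.42.0, limma-voom (limma 3.58.1), other scalings, filters, units, the block and single libraries left out.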

Additional observations from a re-analysis of the deposited data

How the results depend on the processing

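One gene passed an adjusted p of 0.05 in edgeR without a block, against 27 in DESeq2, 9 with no filter on low counts, 0 with limma on log2(TPM + 1) or log2(TPM + 0.1) (1062 and 1077 at an unadjusted p under 0.05) and 1 to 2 with a library left out. The replicate block gave 670, and 2034, 24 and 636 without replicate number 1, 2 and 3 (added after seeing the data). The 9 genes' median difference on the log2 scale, 0.23, was 0.17 with log2(TPM + 1) and ranged from 0.15 to 0.21 with a library left out. List genes with an unadjusted p under 0.05 as higher, 20, numbered 36 with the replicate block (40, 23 and 33 without number 1, 2 and 3), 11 with either TPM scale and 12 to 24 with a library left out, the lowest without DMSO replicate 3. Those lower, 2, numbered 16 with the block (19, 12 and 12) and 1 to 3 with a library left out. The number of the 9 genes higher in all replicate numbers was 8, and 7 on both TPM scales. A full motif with at most 1 mismatch occurred in 0 of the 7 genes. Of 816 values of 51 named genes, 30 changed sign. None of these genes passed an adjusted p of 0.05 in the fit without the block, so sign changes among genes called there could not occur. The median of all genes moved by less than 0.1 in every setting. A search of wider windows was not run, as no genome was used here. Counting error was at most 2.31% for *TP53INP1*, so the spread between libraries, 3 per group, sets the limit.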
